A study of Mus musculus with 6 samples.

Results

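Described here are 10 genes of fluid and bicarbonate secretion in the exocrine pancreas, which were listed by name and found in the count table through their Ensembl identifiers, as 10 of its 37224 entries. They are the carbonic anhydrases *Car2*, *Car4*, *Car9* and *Car14*, the ion transport genes *Cftr*, *Slc4a4* and *Slc26a6*, and the water channels *Aqp1*, *Aqp5* and *Aqp12*. Transcripts of wild-type (wt) C57/Bl6J mouse pancreata were measured at 13.5 and 15.5 days post coitum (dpc). Each stage had 3 independent samples. Each sample was a pool of whole pancreata from up to 3 embryos, without treatment, so the values average over all cells of the organ and over the pooled embryos. In such bulk samples, fewer cells of a type and less RNA per cell cannot be told apart. The comparison asks how the transcripts of these genes changed across the secondary transition, the phase in which acinar and endocrine cells differentiate from the pancreatic epithelium.

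In the exocrine pancreas, acinar cells secrete digestive enzymes and duct cells add a fluid rich in bicarbonate that carries the enzymes to the gut. Carbonic anhydrases make bicarbonate and protons from carbon dioxide and water. The sodium bicarbonate cotransporter *Slc4a4* loads bicarbonate into the duct cell from the blood side, whereas the chloride channel *Cftr* and the chloride-bicarbonate exchanger *Slc26a6* move anions into the lumen. Water follows through aquaporins. In the adult organ, *Aqp1* is known from duct cells and capillary endothelium, *Aqp5* from duct cells and *Aqp12* from acinar cells.

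Of the 10 genes, *Car9*, *Aqp1* and *Aqp12* were higher at 15.5 dpc and *Car14* was lower. These 4 reached an adjusted p of 0.05 or less among the 8 that passed the filter on low counts, by the quasi-likelihood test of edgeR over all 15578 genes tested. Among all genes tested, 22.3% met this threshold, 11.6% higher and 10.7% lower at 15.5 dpc. *Aqp12* showed the largest difference of the 10, from counts of 4 or 5 per sample to 164 or more. *Car9* rose 4.37-fold and held the highest length-corrected level of the 10 at both stages. For *Car2*, *Slc4a4*, *Slc26a6* and *Aqp5* the test did not pass the threshold, and *Car4* and *Cftr* had too few counts to be tested.

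The sequences just before the start sites of the 4 genes that passed the threshold are shown, since these genes moved in different directions and by very different sizes. They are the 250 bases before the start in the RefSeq promoter table (GRCm38.p6, the mm10 build), which held windows for 9 of the 10 genes. Among the windows not shown, both of *Slc4a4* lie wholly inside the annotated gene, as do 179 of the 250 bases of the *Aqp5* window. The *Car14* and *Slc26a6* windows reach 6 bases into the annotated gene and the *Car9* window 60 bases. *Car9* is therefore shown up to the annotated gene only, with the last 30 bases of its window as a separate line. Capitals mark matches to the motifs searched.
Car9, chr4:43506776-43506965, plus strand: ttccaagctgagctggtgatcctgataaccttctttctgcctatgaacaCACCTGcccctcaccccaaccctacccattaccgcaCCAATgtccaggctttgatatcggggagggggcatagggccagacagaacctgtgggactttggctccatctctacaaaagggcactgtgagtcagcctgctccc
Car9, chr4:43506996-43507025, plus strand: ctatttccgatgCACGTacagcccgtccac
Car14, chr3:95904686-95904935, minus strand: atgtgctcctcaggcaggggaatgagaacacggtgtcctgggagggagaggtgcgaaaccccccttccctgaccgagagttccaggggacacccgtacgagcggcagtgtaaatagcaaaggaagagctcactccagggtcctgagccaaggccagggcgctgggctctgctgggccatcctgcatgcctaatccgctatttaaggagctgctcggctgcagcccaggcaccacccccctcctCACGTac
Aqp1, chr6:55336049-55336298, plus strand: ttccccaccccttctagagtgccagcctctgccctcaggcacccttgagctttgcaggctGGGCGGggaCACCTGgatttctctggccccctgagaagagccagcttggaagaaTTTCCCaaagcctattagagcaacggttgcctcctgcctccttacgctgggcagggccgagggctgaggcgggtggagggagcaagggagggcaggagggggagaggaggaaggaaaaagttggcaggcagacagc
Aqp12, chr1:93006084-93006333, plus strand: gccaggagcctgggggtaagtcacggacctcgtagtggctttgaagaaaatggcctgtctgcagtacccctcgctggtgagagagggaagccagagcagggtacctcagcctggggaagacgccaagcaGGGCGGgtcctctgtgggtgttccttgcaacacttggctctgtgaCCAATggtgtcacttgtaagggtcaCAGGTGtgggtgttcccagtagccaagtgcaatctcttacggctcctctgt

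The motifs, searched on both strands, were the TATA box (TATAAA), the CCAAT box (CCAAT), the GC box (GGGCGG), the E-box (CACCTG) and TC box (TTTCCC) bound by the acinar PTF1 complex, the cores of hypoxia response elements (ACGTG and GCGTG) and a half-site of HNF1 (GTTAAT). Matches of different motifs were allowed to overlap, and CACGTG holds ACGTG on both strands. The E-box CACCTG was found in the windows of *Car9* (starting 201 bases before the start site), *Aqp1* (181 bases) and *Aqp12* (51 bases, opposite strand), in 1 of the 2 windows of *Slc4a4* (97 bases, opposite strand), and in 17.2% of all 32851 windows of the table. The core ACGTG lay on the opposite strand 18 bases before the *Car9* start and 7 bases before the *Car14* start. It was also found at 2 places in the *Aqp5* window, 1 of them on both strands, and 16.6% of all windows held it. *Aqp1* and *Aqp12* had a GC box at 190 and 121 bases before the start, as 6 of the 10 windows of the listed genes did (also *Cftr*, *Slc4a4*, *Slc26a6* and *Aqp5*), against 32.7% of all windows. *Car9* and *Aqp12* had a CCAAT box at 165 and 76 bases, as did *Slc4a4* and *Slc26a6*, against 33.8% of all windows. The TC box was found 136 bases before the *Aqp1* start, in the *Cftr* window and in 21.9% of all windows. Among the 10 windows of the listed genes, which include both start sites of *Slc4a4*, the TATA box and the HNF1 half-site had 0 matches, against 12.4% and 6.43% of all windows. GCGTG was in 3 of the 10 windows and in 28.2% of all windows. These matches describe letters in the windows and carry no measure of binding.

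The total counts per sample were 12895732 to 16389237 at 13.5 dpc and 10546028 to 12491550 at 15.5 dpc. Normalised read counts, used for all stage differences, are scaled with TMM factors (0.847 to 1.08), and 1 count is worth 0.718 to 1.38 of them. Samples of the same stage always differed beyond sampling noise, most of all 15.5 dpc replicates 1 and 2, with a chi-square statistic of 46.1 per gene against 1.44 for 13.5 dpc replicates 1 and 2. The difference of that 15.5 dpc pair also ran with gene length across the 15578 genes, which are not independent replicates (Spearman rho = -0.59, a description). The labelled tissue was checked with its markers. All 14 acinar markers, 10 duct markers, 10 endocrine markers and 8 epithelial markers passed the count filter, and the acinar markers summed to 98131 normalised counts or more in every sample. Of 10 intestine and stomach markers, 2 passed the filter, and *Tff1* and *Muc5ac* had 0 counts in all samples. The 2 were *Vil1*, a gene of microvilli, which rose (146 ± 15.8 to 336 ± 34.3 normalised counts, SD, n = 3, adjusted p = 0.00161, edgeR), and *Apoa1* (90.3 ± 17.9 and 49.5 ± 20.8, adjusted p = 0.0694, edgeR), which passed in 6 of 15 alternatives (DESeq2, library size only, no count filter, the length trend removed, the replicate block, and 15.5 dpc replicate 1 left out), with an adjusted p as low as 0.00416. The list summed to 240 to 252 normalised counts at 13.5 dpc and 343 to 443 at 15.5 dpc. The number of genes called depended on single samples, being 3467 with all samples, but 1235, 1331 and 1402 when 13.5 dpc replicate 1, 2 or 3 was left out. Leaving out 15.5 dpc replicate 2 gave 7620, and leaving out 15.5 dpc replicate 3 gave 1438.

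**Figure D1:**
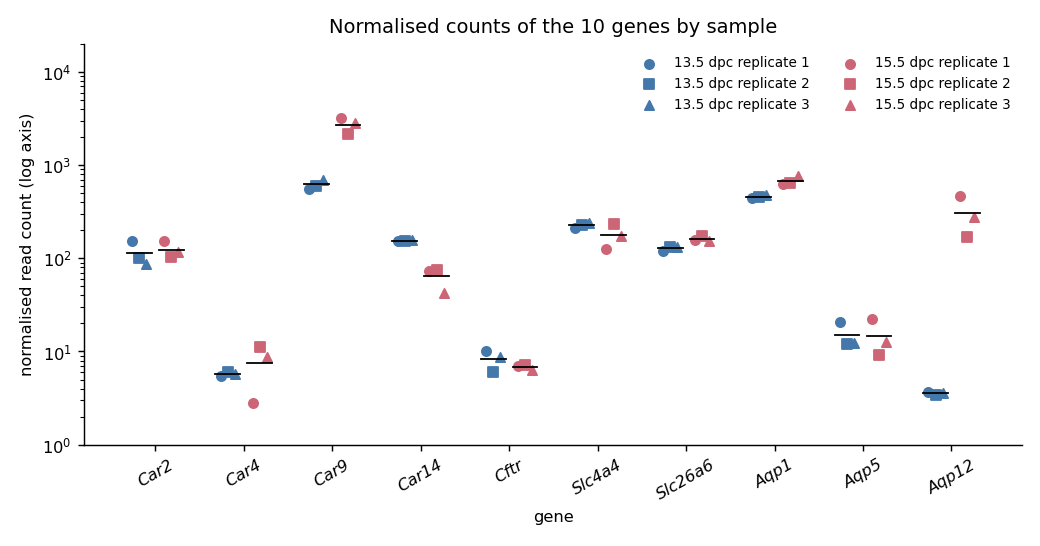
Normalised read counts of the 10 genes (log axis) in each of the 6 samples, with 13.5 dpc in blue, 15.5 dpc in red, one symbol per replicate and a bar at the stage mean. *Car9*, *Slc26a6*, *Aqp1* and *Aqp12* lie higher and *Car14* lower in all 15.5 dpc samples, whereas the stages overlap for *Car2*, *Car4*, *Cftr*, *Slc4a4* and *Aqp5*.

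Among the carbonic anhydrases, *Car9* rose, *Car14* fell, and *Car2* did not pass the test. *Car9* encodes a membrane-bound carbonic anhydrase with its active site outside the cell and is known as a target of hypoxia-inducible factor. It lies on chromosome 4 of mm10 (43506966 to 43513729, plus strand, ENSMUSG00000028463). The 13.5 dpc replicates 1, 2 and 3 held 561, 604 and 699 normalised counts, and those of 15.5 dpc held 3184, 2145 and 2827. The lowest 15.5 dpc sample thus lay above the highest 13.5 dpc sample, and replicate 2 was the lowest of its stage. The mean rose from 621 ± 70.5 to 2719 ± 528 (SD, n = 3), which is 2.13 on the log2 scale (standard error 0.17, 95% interval 1.74 to 2.52, adjusted p = 0.000614, edgeR). Of the 15578 genes tested, 146 had a higher log2 fold change. Over the 15 alternative settings the log2 fold change stayed between 1.90 and 2.29 and the call was kept in each.

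Of 10 hypoxia-responsive genes listed for comparison, 6 rose and 0 fell, with a median log2 fold change of 0.85 against -0.01 over all genes tested (*Adm* reached the filter minimum in all 3 samples only at 15.5 dpc). Summed over the list, the 13.5 dpc samples held 11647, 11772 and 11945 normalised counts and the 15.5 dpc samples 23745, 18259 and 21374. The order of the 15.5 dpc samples was the same as for *Car9*, but also the same as for the sums of the acinar, duct, endocrine and epithelial markers. The lactate dehydrogenase gene *Ldha* had a log2 fold change of 0.86 (adjusted p = 0.00728, edgeR) and *Ndrg1* one of 1.69 (adjusted p = 0.000722, edgeR). Markers of the epithelium, where 4 of 8 rose and 0 fell, summed to 25911 to 27113 normalised counts at 13.5 dpc and 33504 to 42545 at 15.5 dpc. The cadherin gene *Cdh1* was 1 of the 4 (log2 fold change 0.43, adjusted p = 0.0419, edgeR), but kept its call in only 7 of 15 alternatives, with 0.22 (adjusted p = 0.280) for library size only. For mesothelial markers, 2 of 6 rose and 1 fell, with sums of 2973 to 3021 and 3093 to 3979. *Krt19*, which is also in the duct list, is 1 of the 2 that rose, the other (*Msln*) reached the filter minimum in all 3 samples only at 15.5 dpc, and without *Krt19* the mesothelial sums were 2143 to 2180 and 1623 to 1898. The part of these groups in the rise of *Car9* was not tested. The noncoding gene *Gm12454* lies on the opposite strand over 9.29% of the *Car9* exon bases, and the sources used here do not give whether counting used the strand.

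*Car14*, which encodes a carbonic anhydrase that spans the membrane and also acts outside the cell, moved the other way. It lies on chromosome 3 (95897768 to 95904691, minus strand, ENSMUSG00000038526). The values at 13.5 dpc were 152, 155 and 157 normalised counts and those at 15.5 dpc were 73.3, 75.7 and 42.8. All 15.5 dpc samples were lower than all 13.5 dpc samples, replicate 3 most of all. The mean fell from 155 ± 2.26 to 63.9 ± 18.3 normalised counts (SD, n = 3), which is 2.41-fold lower (log2 fold change -1.27, standard error 0.21, 95% interval -1.76 to -0.78, adjusted p = 0.00645, edgeR). Of the genes tested, 292 had a lower log2 fold change. The call held in all 15 alternatives, with log2 fold changes between -1.48 and -1.05. The exons of *Aph1a*, a gamma-secretase subunit gene on the opposite strand, cover 17.5% of the *Car14* exon bases, where reads of the genes can be told apart only by strand.

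Of 8 erythroid markers tested, 4 fell and 1 rose, and the sum of the list went from 11640 to 14397 normalised counts at 13.5 dpc to 1033 to 1449 at 15.5 dpc. Of the 4 that fell, *Hbb-bh1* reached the filter minimum in all 3 samples at 13.5 dpc but in 1 at 15.5 dpc. It thus entered the 4 falls only through the stage where it was high. The embryonic globin genes *Hbb-y*, *Hba-x* and *Hbb-bh1* held most of this sum at 13.5 dpc, with sums of 11187 to 13852 and 489 to 618. The other 6 erythroid markers in the table summed to 453 to 553 at 13.5 dpc and 544 to 857 at 15.5 dpc, a split made after the values were seen. Among these 6, *Alas2*, which encodes an enzyme of heme synthesis, rose (305 to 561 normalised counts) and *Epb42*, which encodes a protein of the red cell membrane, fell (124 to 50.8 normalised counts, log2 fold change -1.27, adjusted p = 0.0189, edgeR). Of 8 glial and neuronal markers, 3 fell and 0 rose, with sums of 2411 to 2719 and 1875 to 2464. The largest part of these sums was *Erbb3*, which did not pass (1092 and 1020 normalised counts, adjusted p = 0.782, edgeR). The part of these cell types in the fall of *Car14* was not tested.

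*Car2*, the cytosolic carbonic anhydrase known from adult duct cells and also from red blood cells, had similar values at both stages. It lies on chromosome 3 (14886426 to 14900769, plus strand, ENSMUSG00000027562). The samples held 153, 102 and 87.6 normalised counts at 13.5 dpc and 152, 102 and 118 at 15.5 dpc. Both stages thus spanned much the same range, with replicate 1 the highest in each. The mean was 114 ± 34.4 at 13.5 dpc and 124 ± 25.5 at 15.5 dpc (SD, n = 3), with a log2 fold change of 0.12 (standard error 0.25, 95% interval -0.46 to 0.70, adjusted p = 0.741, edgeR). The interval leaves room for changes of moderate size in either direction, and the sign turned in 4 of 15 alternatives. Of 10 duct markers, 4 rose (with *Tff2*, which reached the filter only at 15.5 dpc) and 2 fell, and they summed to 20512 to 21299 normalised counts at 13.5 dpc and 19561 to 22604 at 15.5 dpc. *Spp1*, the largest part of each sum, was 1 of the 2 that fell (11748 to 8326 normalised counts, log2 fold change -0.50, adjusted p = 0.00981, edgeR). That call was kept in 12 of 15 alternatives. *Anxa4*, next in mean count, rose (1755 to 3089 normalised counts, log2 fold change 0.82, adjusted p = 0.0015, edgeR). The erythroid sums are given above, with and without the embryonic globins, and the part of these cells in the *Car2* values was not tested.

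*Car4*, a carbonic anhydrase anchored to the outer membrane and known from capillaries and several secretory epithelia, was near the limit of detection. It lies on chromosome 11 (84957786 to 84966044, plus strand, ENSMUSG00000000805). Raw counts of 6, 7 and 8 were found in the 13.5 dpc samples and of 2, 11 and 7 in the 15.5 dpc samples. The 15.5 dpc samples enclosed the 13.5 dpc samples on both sides. Without the count filter the log2 fold change was 0.44 (95% interval -0.66 to 1.53, adjusted p = 0.577, edgeR), so a difference was not detectable at this depth.

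Among the ion transport genes, 0 passed the threshold. *Slc26a6*, whose product exchanges chloride for bicarbonate at the luminal membrane, lies on chromosome 9 (108854037 to 108912558, plus strand, ENSMUSG00000023259). The samples of 13.5 dpc held 118, 131 and 134 normalised counts and those of 15.5 dpc held 158, 174 and 155. The 15.5 dpc samples were all higher, by a small margin. Mean values were 128 ± 8.14 and 162 ± 10.2 normalised counts (SD, n = 3), with a log2 fold change of 0.34 (standard error 0.12, 95% interval 0.06 to 0.63). With adjustment over all genes the p was 0.0806 (edgeR), and it ranged from 0.0667 to 0.483 over the alternatives. Stages that do not overlap were common, as 46.4% of all genes tested and 5 of the 8 listed genes tested showed them.

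*Slc4a4*, the sodium bicarbonate cotransporter, lies on chromosome 5 (88886818 to 89239653, plus strand, ENSMUSG00000060961) and, at 10815 exon bases, has the longest transcript model of the 10. The 13.5 dpc samples held 214, 229 and 239 normalised counts and the 15.5 dpc samples 127, 234 and 173. Replicate 2 of 15.5 dpc lay within the range of 13.5 dpc, whereas the other 15.5 dpc samples lay below it. The mean was 227 ± 12.6 at 13.5 dpc and 178 ± 53.6 at 15.5 dpc (SD, n = 3), and the log2 fold change was -0.34 (standard error 0.21, 95% interval -0.83 to 0.14, adjusted p = 0.256, edgeR). Without 15.5 dpc replicate 2 the log2 fold change was -0.58 and passed the threshold (adjusted p = 0.0148, edgeR). With the trend of each library with gene length removed it was -0.07 (adjusted p = 0.627, edgeR).

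*Cftr*, the chloride channel that is mutated in cystic fibrosis, lies on chromosome 6 (18170687 to 18322768, plus strand, ENSMUSG00000041301). It was detected in all samples, at raw counts of 11, 7 and 12 at 13.5 dpc and 5, 7 and 5 at 15.5 dpc. These are 30 counts at 13.5 dpc and 17 at 15.5 dpc in all, spread over 7765 exon bases. The normalised values of the stages overlapped, at 8.21 ± 2.04 and 6.79 ± 0.45 (SD, n = 3). Without the count filter the log2 fold change was -0.29 (95% interval -1.17 to 0.60, adjusted p = 0.667, edgeR), and a difference was not detectable at this depth.

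The water channels showed the widest range of stage differences. *Aqp12*, a member of the aquaporin family known for its location inside acinar cells, lies on chromosome 1 (93006334 to 93012269, plus strand, ENSMUSG00000045091), with 3 exons. The 13.5 dpc samples held raw counts of 4, 4 and 5, and the 15.5 dpc samples 338, 164 and 218. In normalised counts these were 3.64, 3.43 and 3.59, then 468, 168 and 275. All 15.5 dpc samples stood far above the 13.5 dpc samples, but they also differed among themselves, replicate 1 being the highest and replicate 2 the lowest. The mean rose from 3.56 ± 0.11 to 303 ± 152 normalised counts (SD, n = 3), an 82.0-fold change (log2 fold change 6.36, standard error 0.52, 95% interval 5.13 to 7.58, adjusted p = 0.00067, edgeR). The size of the fold rests on 13 counts in all at 13.5 dpc, and the gene passed the filter only through its 15.5 dpc samples. Of all genes tested, 6 had a higher log2 fold change. It stayed between 5.90 and 6.67 in the 14 alternatives that could test it, with the call kept in each.

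The acinar markers moved with *Aqp12*. All 14 rose, with a median log2 fold change of 3.18, and their summed normalised counts went from 98131, 109740 and 117969 at 13.5 dpc to 1358990, 631668 and 877094 at 15.5 dpc. Of the 14, *Amy2a5* and *Gp2* reached the filter on low counts only at 15.5 dpc, as *Aqp12* did, so their direction was set by the filter. In both *Aqp12* and this sum, replicate 1 of 15.5 dpc was the highest and replicate 2 the lowest. The chymotrypsinogen gene *Ctrb1* had a log2 fold change of 3.75 (adjusted p = 0.000957, edgeR) and the lipase-related gene *Pnliprp1* one of 3.39. How much of the rise of *Aqp12* goes with acinar RNA as a whole was not tested.

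*Aqp1*, a water channel known from duct cells, capillary endothelium and red blood cells, lies on chromosome 6 (55336432 to 55348555, plus strand, ENSMUSG00000004655). The samples held 446, 459 and 476 normalised counts at 13.5 dpc and 632, 647 and 772 at 15.5 dpc. The stages were separate and the 13.5 dpc samples were closely spaced. The mean rose 1.48-fold, from 460 ± 15.0 to 684 ± 76.6 normalised counts (SD, n = 3), with a log2 fold change of 0.57 (standard error 0.11, 95% interval 0.32 to 0.82, adjusted p = 0.0114, edgeR). This was the least stable of the 4 calls. It was lost without TMM factors, on library size only (log2 fold change 0.36, adjusted p = 0.0825), without 13.5 dpc replicate 1 (0.55, adjusted p = 0.0702), replicate 2 (0.57, adjusted p = 0.0638) or replicate 3 (0.59, adjusted p = 0.0527), and without 15.5 dpc replicate 3 (0.48, adjusted p = 0.0552), all by edgeR. The direction was kept throughout.

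Of 8 endothelial markers, 1 rose and 0 fell, with sums of 7622 to 8166 normalised counts at 13.5 dpc and 7526 to 8861 at 15.5 dpc. The endothelial cadherin gene *Cdh5* had a log2 fold change of 0.12 (adjusted p = 0.583, edgeR) and *Eng* one of 0.14 (adjusted p = 0.304, edgeR). The erythroid sums were lower at 15.5 dpc with the embryonic globins, while the other markers of that list moved in both directions as given above, and the duct sums of the stages overlapped. Of the 10 duct markers, 4 rose and 2 fell, among the latter *Spp1*, the largest part of the duct sums. The part of these cells in the *Aqp1* value was not tested.

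*Aqp5*, a water channel of duct and glandular cells, was measured at low counts. It lies on chromosome 15 (99590849 to 99594829, plus strand, ENSMUSG00000044217). The values were 21.0, 12 and 12.2 normalised counts at 13.5 dpc and 22.1, 9.20 and 12.6 at 15.5 dpc. The stages overlapped fully, and replicate 1 was the highest in each. With means of 15.1 ± 5.11 and 14.6 ± 6.71 (SD, n = 3), the log2 fold change was -0.07 (standard error 0.40, 95% interval -1.01 to 0.87, adjusted p = 0.917, edgeR). Its sign turned in 3 of the 14 alternatives that could test it, so no direction can be given.

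**Figure D2:**
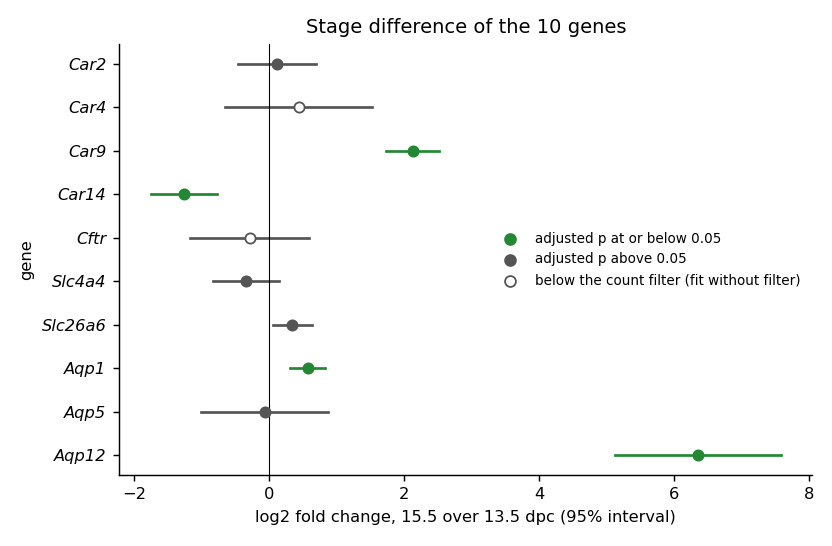
Log2 fold change (15.5 over 13.5 dpc) of the 10 genes with 95% intervals from edgeR, in green where the adjusted p was at or below 0.05 and as open circles for *Car4* and *Cftr*, which were fitted without the count filter. *Aqp12* stands far to the right at 6.36, *Car9* and *Aqp1* lie above 0, *Car14* lies below 0, and the intervals of *Car2*, *Car4*, *Cftr*, *Slc4a4* and *Aqp5* cross 0. The interval of *Slc26a6* (0.06 to 0.63) does not cross 0, but its adjusted p was 0.0806 (edgeR).

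As a group, 3 of the 8 genes tested were higher, 1 was lower and 4 did not pass, with a median log2 fold change of 0.23 against -0.01 over all genes tested. By the thresholds of the study (adjusted p at or below 0.1, over 100 normalised counts in either stage, fold below 0.6 or above 1.6), *Car9*, *Car14* and *Aqp12* differed. These thresholds were met by 10.4% of the 14011 protein-coding genes tested. *Aqp1* had a fold below 1.6 and *Slc26a6* one of 1.27. The sets are small, and 1 of the genes tested, *Aqp12*, could pass the filter only by being high at 15.5 dpc.

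**Figure D3:**
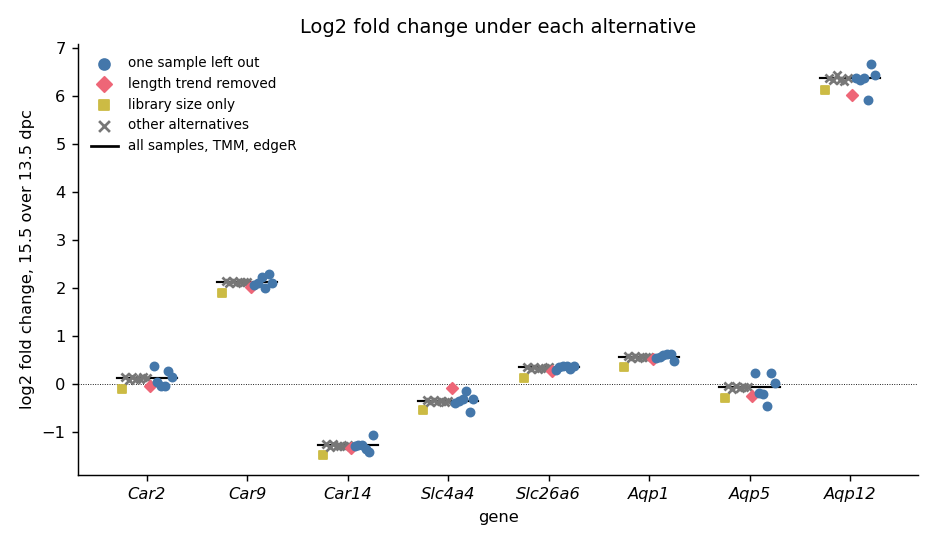
Log2 fold change of the 8 genes tested under each alternative setting, with a bar for the fit on all samples, circles for fits with 1 sample left out, a diamond for the length trend removed and a square for library size only. The values of *Car9*, *Car14* and *Aqp12* keep well away from 0, whereas those of *Car2* and *Aqp5* fall on both sides of it.

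Levels of different genes were compared as TPM, a measure that divides counts by exon length and gives each gene as a share of all transcripts in a library. At 13.5 dpc *Car9* was the highest of the 10 at 60.3 ± 8.55 TPM, followed by *Aqp1* at 39.2 ± 2.34, *Car2* at 14.2 ± 3.96, *Car14* at 13.6 ± 0.55, *Slc26a6* at 11.9 ± 1.03 and *Slc4a4* at 4.70 ± 0.38 (SD, n = 3). *Aqp5* followed at 2.01 ± 0.64 TPM, *Aqp12* at 0.73 ± 0.03, *Car4* at 0.65 ± 0.04 and *Cftr* at 0.24 ± 0.06. The samples of *Car2* and *Car14* overlapped in this order, and those of all other neighbours were separate. *Aqp12* and *Car4* rested on 13 and 21 counts in all at this stage, too few to settle their order.

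By 15.5 dpc the order had changed. *Car9* stood at 183 ± 14.2 TPM and was 4.40 times the next gene, *Aqp1*, where the ratio had been 1.54 at 13.5 dpc. *Aqp1*, at 41.6 ± 9.96 TPM, and *Aqp12*, at 41.4 ± 12.2, could not be ranked, as their samples overlapped. *Slc26a6* at 10.8 ± 2.80 TPM and *Car2* at 10.8 ± 0.13 also overlapped. *Car14* at 4.0 ± 1.51 TPM, *Slc4a4* at 2.73 ± 1.33, *Aqp5* at 1.31 ± 0.31 and *Car4* at 0.66 ± 0.46 overlapped, each with the next. *Cftr* was the lowest at both stages, at 0.14 ± 0.03 TPM in 15.5 dpc samples.

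Summed over the 10 genes, the level was 142, 143 and 158 TPM at 13.5 dpc and 283, 291 and 317 TPM at 15.5 dpc. *Car9* held 40.9% of this sum at 13.5 dpc and 61.8% at 15.5 dpc, and *Aqp12* 0.495% and 13.9%. The 4 carbonic anhydrases went from 88.8 ± 6.24 to 199 ± 13.5 TPM and the 3 aquaporins from 41.9 ± 1.98 to 84.3 ± 6.38, without overlap between the stages. The 3 ion transport genes had sums of 16.8 ± 1.39 and 13.7 ± 4.17 TPM, which overlapped. TPM are shares of libraries in which acinar transcripts took a larger part at 15.5 dpc, so a gene such as *Aqp1* can rise in normalised counts while its TPM ranges overlap.

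**Figure D4:**
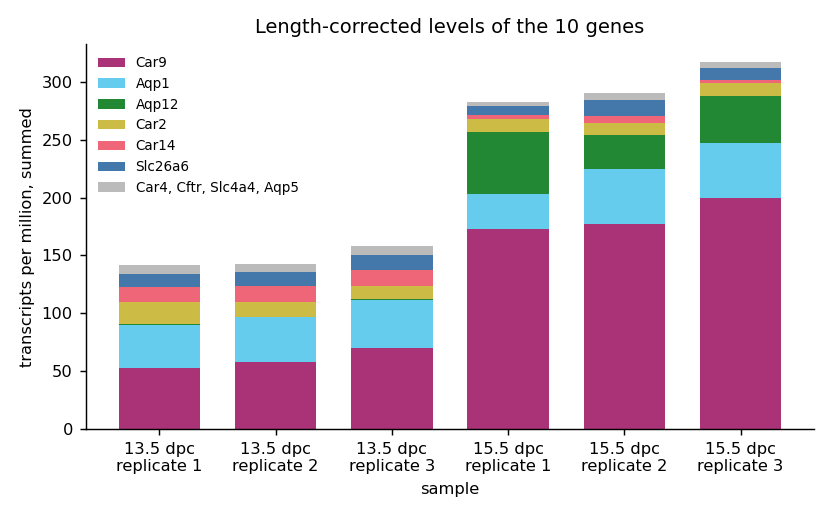
Length-corrected levels (TPM) of the 10 genes, stacked for each of the 6 samples. The sums lie between 142 and 158 at 13.5 dpc and between 283 and 317 at 15.5 dpc, with *Car9* as the largest share in every sample and *Aqp12* visible only at 15.5 dpc.

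For each of the 8 genes tested, the protein-coding genes with the most similar profile over the 6 samples were found by the root mean square difference of their log2 values, each centred on its mean, over 14011 candidates. The closest profile to *Aqp12* was that of another water channel, *Aqp8* (difference 0.14), followed by the trypsinogen genes *Prss3* (0.16) and *Try10* (0.24). The log2 values carry a prior count of 2, which raises *Aqp12* at its 13.5 dpc counts of 4, 4 and 5. Its differences therefore depend on that prior, and the fitted log2 fold changes were 6.36 for *Aqp12* and 5.64 for *Aqp8*. For *Car9* the closest were *Spdef*, an Ets factor of secretory epithelia (0.082), *Herpud1*, a gene of the endoplasmic reticulum stress response (0.082), and the Krueppel-like factor gene *Klf15* (0.088). *Car14* lay nearest to *Naaladl1* (0.11), *Stat4* (0.12) and *Cpb2* (0.12). *Aqp1* was nearest to *Prnd* (0.038), *Fam83g* (0.057) and *Tex2* (0.057). The smallest difference of all was that between *Slc4a4* and *Hook3* (0.020), with *Ankrd28* (0.029) and *Znrf3* (0.031) next. *Slc26a6* was nearest to *Zfp52* (0.033), *Ankrd24* (0.036) and *Xrcc2* (0.038). *Car2* was nearest to *BC028528*, *Hypk* and *Trmo* (0.10 to 0.12), and *Aqp5* to *Fcer1g*, *Gjb5* and *Ifi27l2a* (0.14 to 0.15). Such likeness over 6 samples is a description.

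Around these 10 genes, 72 other genes of the same families and of the duct secretion machinery were listed. Of these, 51 passed the count filter and 17 of the 51 (33.3%) passed the threshold, 9 higher and 8 lower, beside 22.3% of all genes tested (11.6% higher and 10.7% lower). Their median log2 fold change was -0.08. *Aqp2*, *Aqp6*, *Slc26a5* and *Slc9a3* had 0 counts in all samples. The number called rested on single samples, being 7, 8 and 9 when 13.5 dpc replicate 1, 2 or 3 was left out. Leaving out 15.5 dpc replicate 2 gave 28, and leaving out 15.5 dpc replicate 3 gave 8.

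*Car9* and *Car14* had counterparts among the other carbonic anhydrases, of which 1 rose and 2 fell among 6 tested. The mitochondrial *Car5b* had a log2 fold change of 1.5 (adjusted p = 0.0274, standard error 0.37), the transmembrane *Car12* one of -1.14 (adjusted p = 0.0150, standard error 0.24) and *Car11*, a related protein without enzyme activity, one of -0.54 (adjusted p = 0.0354, standard error 0.15), all by edgeR. The summed normalised counts of this list were 427 to 446 at 13.5 dpc and 395 to 423 at 15.5 dpc, below *Car9* alone in every sample. *Car5b* reached the minimum of the filter in all 3 samples only at 15.5 dpc. Each of the 3 calls was lost without 13.5 dpc replicate 1, 2 or 3 or without 15.5 dpc replicate 3, with log2 fold changes of 1.34 to 1.65 for *Car5b*, -1.19 to -1.06 for *Car12* and -0.61 to -0.47 for *Car11*.

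Of the other aquaporins, 3 of 5 tested rose and 0 fell, with a median log2 fold change of 1.16. *Aqp8*, a water channel known from acinar cells, went from 42.8 ± 1.69 to 2150.5 ± 1187 normalised counts (SD, n = 3), and the log2 fold change was 5.64 ± 0.46 (standard error; adjusted p = 0.00067, edgeR). In its samples, 15.5 dpc replicate 1 was the highest and replicate 2 the lowest, as for *Aqp12*. *Aqp8* reached 201 TPM at 15.5 dpc, against 41.4 TPM for *Aqp12* and 183 TPM for *Car9*. *Aqp4* rose from 233 ± 42.3 to 550 ± 85.5 normalised counts (log2 fold change 1.24, adjusted p = 0.00363, edgeR). *Aqp3*, a channel that also carries glycerol, had a log2 fold change of 1.16 (adjusted p = 0.0194, edgeR), which did not pass without 13.5 dpc replicate 1, 2 or 3 or without 15.5 dpc replicate 3 (1.02 to 1.26, adjusted p = 0.0626 to 0.0882). It reached the minimum of the filter in 1 of 3 samples at 13.5 dpc and in all 3 at 15.5 dpc, and so entered the 3 rises of this list only through the stage where it was high.

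Among the bicarbonate transporters related to *Slc4a4*, 3 of 5 tested fell and 0 rose, with a median log2 fold change of -0.68. They were *Slc4a1*, the anion exchanger of red blood cells (-0.68, adjusted p = 0.0133), *Slc4a3* (-0.78, adjusted p = 0.0140) and the sodium-driven exchanger *Slc4a8* (-0.75, adjusted p = 0.0134), by edgeR. Among the red cell markers beside the globins, *Epb42* fell and *Alas2* rose, as given above, and the part of red blood cells in the *Slc4a1* value was not tested. The most abundant of the list, the anion exchanger *Slc4a2*, had a log2 fold change of -0.04 (adjusted p = 0.737, edgeR). *Slc4a1* did not pass without 13.5 dpc replicate 1 (-0.57) or 15.5 dpc replicate 3 (-0.65), and *Slc4a3* (-0.82 to -0.74) and *Slc4a8* (-0.79 to -0.68) did not pass without 13.5 dpc replicate 1, 2 or 3 or without 15.5 dpc replicate 3. With the length trend removed *Slc4a8* was at -0.42 and did not pass (adjusted p = 0.0612, edgeR).

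Of the relatives of *Slc26a6*, 1 rose and 1 fell among 7 tested. *Slc26a9*, an anion transporter known from stomach and airway epithelia, rose from 33.8 ± 9.70 to 407 ± 82.9 normalised counts (SD, n = 3), and the log2 fold change was 3.57 ± 0.25 (standard error; adjusted p = 0.000441, edgeR). The anion exchanger *Slc26a7* fell, from 245 ± 8.24 to 96.8 ± 28.9 normalised counts (log2 fold change -1.32, adjusted p = 0.00497, edgeR). *Slc26a11*, with the highest TPM of the list averaged over both stages, had a log2 fold change of -0.23 (adjusted p = 0.169, edgeR), and one of -0.45 that passed with library size only (adjusted p = 0.0290, edgeR). At 12.1 TPM in 15.5 dpc samples, *Slc26a9* was at a level near that of *Slc26a6* (10.8 TPM).

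Of the sodium-proton exchangers, which move the protons left by bicarbonate formation out of the cell, 1 of 6 tested fell and 0 rose. It was *Slc9a5* (log2 fold change -0.72, adjusted p = 0.0164, edgeR), which did not pass without 13.5 dpc replicate 1, 2 or 3 or without 15.5 dpc replicate 3 (-0.76 to -0.70). Of 14 chloride and potassium channels, pumps and cotransporters, 3 rose and 0 fell. The potassium channel gene *Kcnq1* rose from 420 ± 57.5 to 1085 ± 29.2 normalised counts (SD, n = 3), and the log2 fold change was 1.37 ± 0.12 (standard error; adjusted p = 0.000803, edgeR). The chloride channel gene *Clcn2* (0.42, adjusted p = 0.0142) and *Clcn3*, a chloride-proton exchanger of vesicles (0.60, adjusted p = 0.00849), had smaller differences by edgeR. Both were lost with library size only (0.21 and 0.40). They were also lost without 13.5 dpc replicate 1 (0.43 and 0.60) or 2 (0.41 and 0.57), and *Clcn2* without 13.5 dpc replicate 3 (0.42) or 15.5 dpc replicate 3 (0.46).

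The regulators of *Cftr* and the secretin receptor gene *Sctr* gave 1 rise and 1 fall among 8 tested. The kinase gene *Stk39* rose (log2 fold change 0.54, adjusted p = 0.00457) and the kinase gene *Wnk4* fell (-0.69, adjusted p = 0.00449), both by edgeR. The scaffold gene *Slc9a3r1*, which had the highest TPM of the list, had a log2 fold change of 0.43 (adjusted p = 0.0576, edgeR), which passed without 15.5 dpc replicate 1 (0.28, adjusted p = 0.0346) or replicate 2 (0.55, adjusted p = 0.00412). It also passed with DESeq2 (0.45, adjusted p = 0.0257) and with the length trend removed (0.27, adjusted p = 0.0194). *Sctr*, through which the hormone secretin drives duct secretion, had 35 counts in all at 13.5 dpc and 17 at 15.5 dpc.

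**Figure D5:**
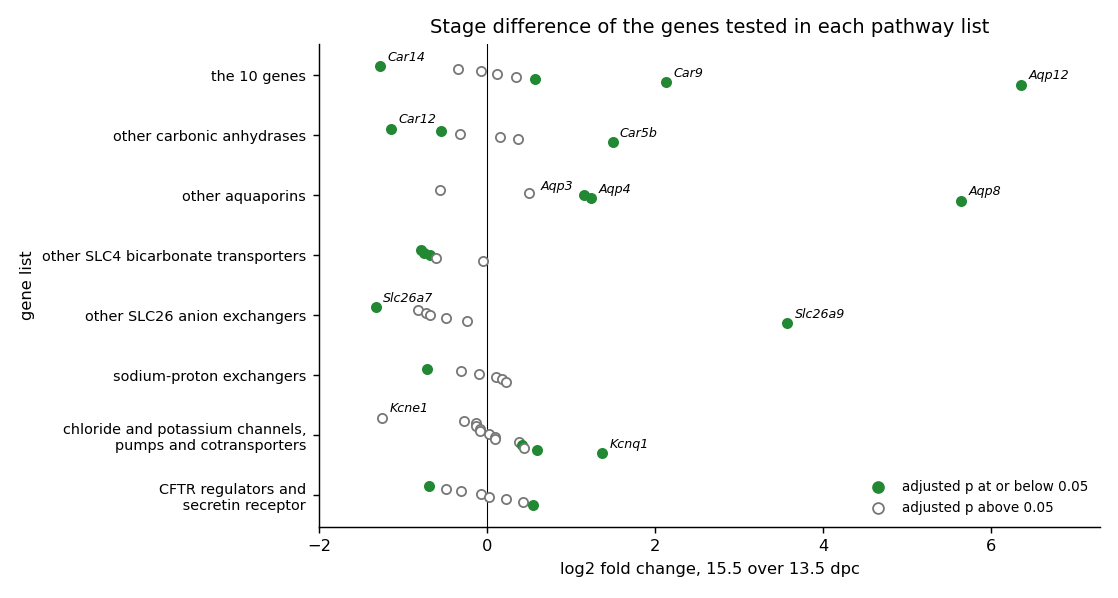
Log2 fold change (15.5 over 13.5 dpc) of the genes tested among the 10 genes and in each of the 7 related lists, filled where the adjusted p was at or below 0.05 and with the genes beyond 1.1 in either direction named. *Aqp12*, *Aqp8* and *Slc26a9* stand apart on the right at 6.36, 5.64 and 3.57, and the SLC4 transporters that passed the threshold all lie left of 0.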

How the data were processed

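RNA of wt mouse pancreata was measured at 13.5 and 15.5 dpc, with 3 samples for either stage and up to 3 embryos in a sample. The authors made strand-specific libraries, aligned the reads to mm10 with GSNAP and counted uniquely aligned reads on genes of Ensembl release 69 with featureCounts 1.4.6 (bcl2fastq 1.8.4 is also named in the submitters' processing notes). The deposited values are these raw counts per gene, without normalisation. Whether counting used the strand is not given in the sources used here.

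Identifiers were matched to symbols by an mm10 annotation (35449 of 37224 matched). All 6 count columns were used. Counts were filtered (filterByExpr, minimum 10), normalised with TMM factors and compared without covariates by the quasi-likelihood test of edgeR 4.0.16 in R 4.3.3, with Benjamini-Hochberg adjustment. limma 3.58.1 and DESeq2 1.42.0 were used beside it, and Python 3.11.15 for figures and motifs. Standard errors were obtained as absolute log2 fold change over the root of F. Normalised counts were brought to the geometric mean of effective library sizes, and TPM use the exon lengths of the table. Totals of 10546028 to 16389237 counts per sample limit precision for the rarest genes. Intervals cover the spread between samples, whose pools the methods call independent. The steps were tested on simulated data.

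The 10 genes and the lists around them were chosen with earlier results of these data known. Named are the 10 genes, genes of the pathway lists with an adjusted p at or below 0.05 or the highest TPM of their list, up to 2 markers of highest count per cell type list, and the 3 nearest profiles (log2 CPM, prior count 2). *Sctr*, *Hbb-bh1*, *Alas2*, *Epb42*, genes that reached the filter at 1 stage and genes at 0 were named beside this rule, after their values were seen. Of 10 erythroid markers, 9 were matched. Alternatives tried were DESeq2, further normalisations, filters and thresholds, a block for the replicate number, removal of genes holding over 1% of the counts, a lowess trend with exon length removed (span 0.5), and each sample left out. Some listed genes are not reported here. A planned comparison of the proteins was not run.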

Additional observations from a re-analysis of the deposited data

How the results depend on the processing

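The number of the 10 genes called was 4, and 3 to 5 under the alternatives (3 to 5 with 1 sample left out). Over the 8 genes tested and all alternatives, 105 values kept their direction and side of the threshold, 5 lost the call (all of *Aqp1*), 1 gained it (*Slc4a4*) and 7 changed sign. With library size only, the median over all genes, on the log2 scale, moved from -0.01 to -0.22, the share of calls that were higher went from 52.1% to 27.7%, and the median of the 51 related genes tested went from -0.08 to -0.27. It was 0.048 with the length trend removed and -0.13 to 0.011 with 1 sample left out, which gave 7 to 28 related genes and 1235 to 7620 of all genes. With DESeq2 4279 genes were called in all, and with the length trend removed 5130. At least 10 counts in every sample left *Aqp12* untested. The sign turned for *Car2* with library size only (-0.10), with the length trend removed (-0.046) and without 13.5 dpc replicate 3 (-0.043) or 15.5 dpc replicate 1 (-0.042), and for *Aqp5* without 13.5 dpc replicate 1 (0.23), 15.5 dpc replicate 2 (0.22) or 15.5 dpc replicate 3 (0.013). It also turned with library size only for *Cdh5* (-0.082) and *Eng* (-0.066), and with the length trend removed for *Slc4a2* (0.13), *Col3a1* (0.030), *Col1a1* (0.048) and *Erbb3* (0.045). Further turns were *Upk3b* with RLE factors (0.0032), DESeq2 (0.0038) and without 15.5 dpc replicate 1 (0.040), *Erbb3* without 13.5 dpc replicate 3 (0.022), and *Col1a1* (0.029) and *Erbb3* (0.12) without 15.5 dpc replicate 1. With 1 sample left out, the values ranged up to 0.38 for *Car2*, and down to -0.46 for *Aqp5*, -0.26 for *Col1a1*, -0.039 for *Upk3b* and -0.36 for *Erbb3*. The cause of these turns was not tested.

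Samples of the same number did not deviate together (correlations of 0.22, -0.22 and 0.04 for numbers 1, 2 and 3), so the numbers were not taken as pairs. With the replicate block 4 of the 10 genes, 14 related genes and 2676 of all genes were called. The block ended the calls of *Car11* (adjusted p = 0.0847), *Aqp3* (0.0538) and *Clcn2* (0.0512) by edgeR, and those of the markers *Cdh1* and *Csf1r*, and gave a call for *Apoa1* (0.0299).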

Other observations

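Beside the cell types set against single genes above, 3 further marker lists were measured. Of 10 endocrine markers, 6 rose and 2 fell between 13.5 and 15.5 dpc, with sums of 29534 to 31889 and 31593 to 53036 normalised counts. The insulin gene *Ins2* had a log2 fold change of 2.64 (adjusted p = 0.00221, edgeR) and the glucagon gene *Gcg* one of -0.32 (adjusted p = 0.114, edgeR). *Gcg* passed with library size only (-0.54, adjusted p = 0.00715), with the length trend removed (-0.53, adjusted p = 0.000833) and without 15.5 dpc replicate 1 (-0.44, adjusted p = 0.00692), by edgeR. Of 8 mesenchymal markers, 2 rose and 1 fell, with sums of 121465 to 137457 and 89800 to 133299 normalised counts. Of 8 immune markers, 3 fell and 0 rose, with sums of 1797 to 1894 and 1493 to 1830. The sums of both the mesenchymal and the immune list overlapped between the stages, and that of the endocrine list did too. The largest part of the endocrine sum was *Gcg* at both stages (15868 and 12725 normalised counts), whereas 6 of the 10 markers rose and 2 fell.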
